A study of Mus musculus with 8 samples.

Results

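The genes described here are 35 genes that mark blood endothelial cells, the cells that line arteries, veins and capillaries, followed in whole inguinal fat, a subcutaneous white depot of the groin. They were chosen by name, with earlier results of these data known, and receptors for VEGF and angiopoietins were kept out. A gene counted as measured when at least 1 probe set of the array was paired with its symbol alone, and its brightest probe set over all arrays gave its value. This left 34 of the 35 genes, out of 18193 genes in all, since Tspan7 was paired with no such probe set in the annotation used here. Expression was compared between 4 male LPA4-KO mice, labelled Lpar4 -/Y, and 4 male wild-type (WT) littermates, all aged 12 weeks, on a C57BL/6 background and standard chow. Lpar4 lies on the X chromosome, so a male has a single copy, and it encodes a G protein-coupled receptor for lysophosphatidic acid. Each mouse gave 1 array of whole tissue, so that the signal of an endothelial gene joins the number of endothelial cells and the RNA in each of them, and fewer cells and less RNA per cell cannot be told apart. The labels leave out how the Lpar4 allele was made and in which cells it is lost.

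Endothelial cells are held together by adherens and tight junctions, above all by VE-cadherin (Cdh5) and claudin-5 (Cldn5). Their identity is maintained by transcription factors of the ETS family (Erg, Fli1) and of the SOXF group (Sox7, Sox17, Sox18). In fat, a dense capillary bed brings fatty acids and oxygen to adipocytes, and its cells respond to blood flow, VEGF, Notch and lysophospholipids.

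All values are log2 signals as deposited, and a negative difference means a lower KO mean. Array medians ran from 6.73 to 6.74. For 71.6% of genes the SD over the 8 arrays was under 0.01. Such genes are called near constant here and carry no direction, and the other 5173 genes are called varying. The labelled tissue was borne out by its adipocyte markers, 10 of which averaged between 12.33 and 12.50 in every array. Lpar4 had 3 probe sets: 1452424_at was lower in every KO array (5.74 to 5.91) than in any WT array (6.80 to 7.04), whereas 1434186_at and 1439665_at were higher in every KO array (by 0.71 and 0.53). Where these lie relative to the deleted part is not known here. Array controls for 18S ribosomal RNA were higher in KO as well, by 0.44, 0.22 and 0.28, and their part in the results below was not tested.

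As a set, the endothelial genes of this list lay lower in KO tissue. Because the list was chosen with earlier results known, the shares below describe it and are not a test. Of the 34 measured genes 30 varied, and 28 of these 30 had a lower mean in KO than in WT, against 47.7% of all varying genes. The largest differences were those of the transcription factor Sox7 (-0.90, or 53.5% of the WT signal), the adhesion molecule Pecam1 (-0.61), the gap junction protein Gja4 (-0.46), the diaphragm protein Plvap (-0.42) and the TGF-beta co-receptor Eng (-0.41). The remaining genes with lower means differed by less. The 2 genes with a higher KO mean, Nrp1 (0.049) and Robo4 (0.044), differed by less than the SD of the WT arrays (0.13 and 0.14). The SD of the KO arrays was 0.03 for Nrp1 and 0.21 for Robo4. In 11 of the 30 varying genes every KO array lay below every WT array, a pattern found in 15.0% of all varying genes, and in 0 genes did every KO array lie above every WT array (18.2% of varying genes). The KO array was the lower one in all 4 number pairs for 16 of the 30, against 25.0% of varying genes.

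How many of these genes passed a test depended on which genes were tested together. KO was compared with WT with limma, a moderated linear model, with Benjamini-Hochberg adjustment and a threshold of 0.05. Over all 18193 genes 3 of the 34 fell, namely Sox7, Gja4 and Esam, and 0 rose. Of all genes 4.03% passed, 1.64% lower and 2.39% higher. Among varying genes 14 of 30 fell and 0 rose, against 12.2% and 14.9% of all varying genes (27.1% in all). The labels number the mice 1 to 4 in both genotypes. With the number as a replicate block 0 of 34 passed over all genes, and 0.00% of all genes did. An unadjusted p under 0.05 (limma) was then found for 13 of the 34, against 3703 of all 18193 genes. Among varying genes with the block 7 of 30 fell and 0 rose, against 9.24% and 10.3% (19.5% in all). These 7 were Sox7, Pecam1, Gja4, Plvap, Ecscr, Esam and Icam2. All genes and varying genes, each with and without the block, make up 4 fits. An SE printed in the text beside a gene's difference comes from the fit over all genes without the block. The 95% intervals come from the fit to varying genes without the block. With all genes and the block, the limma adjusted p was 0.107 for Sox7, 0.0697 for Gja4 and 0.154 for Esam.

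Single arrays weighed on these counts. Over all genes, 0 of 34 passed when KO 1, KO 3, KO 4, WT 2, WT 3 or WT 4 was left out, 1 without KO 2 (Gja4) and 2 without WT 1 (Ece1 and Esam). The whole table moved too: of all 18193 genes 733 passed with 8 arrays, and 10 to 253 with an array left out. Among varying genes 14 passed without KO 2 or WT 1, 7 without WT 4, 5 without KO 1 or KO 4, and 4 without KO 3, WT 2 or WT 3. Of all 5173 varying genes 1402 passed with 8 arrays. That count was 1108 without KO 2, 1149 without WT 1, 1114 without WT 4, 700 without KO 1 and 1055 without KO 4. It was 636 without KO 3, 828 without WT 2 and 1010 without WT 3. Sox7, Gja4, Esam and Ecscr were the 4 genes that passed in all 8 of these fits among varying genes.

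**Figure D1:**
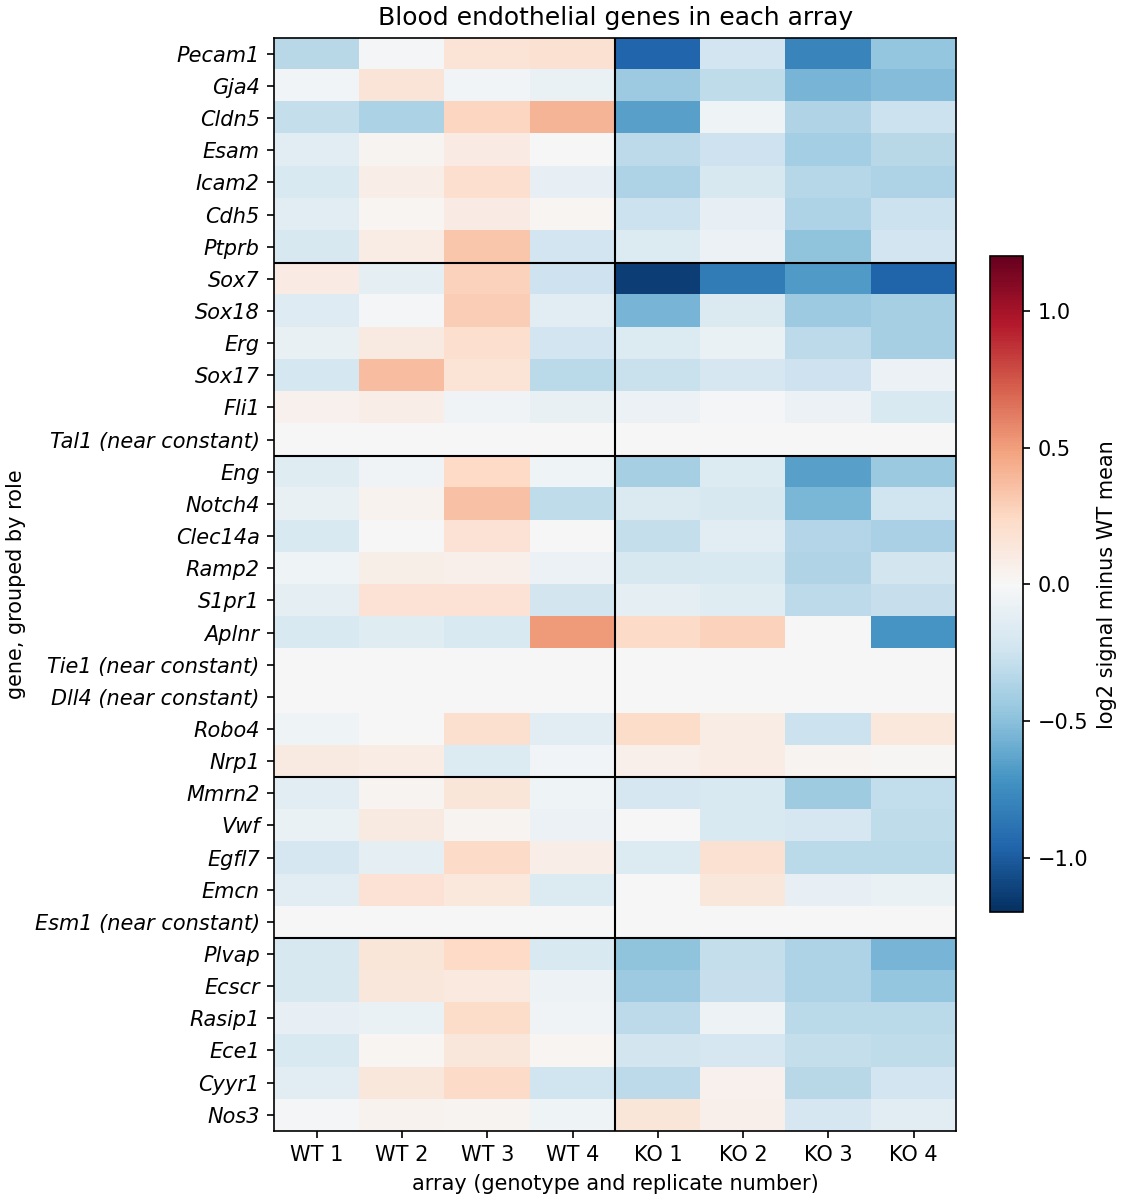
Log2 signal of each of the 34 measured endothelial genes (rows, grouped by role and ordered by difference) in each of the 8 arrays (columns), minus the gene's WT mean; blue is below and red above it. Most rows are blue across the 4 KO columns, Sox7 most deeply, and the 4 near-constant genes are white.

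**Figure D2:**
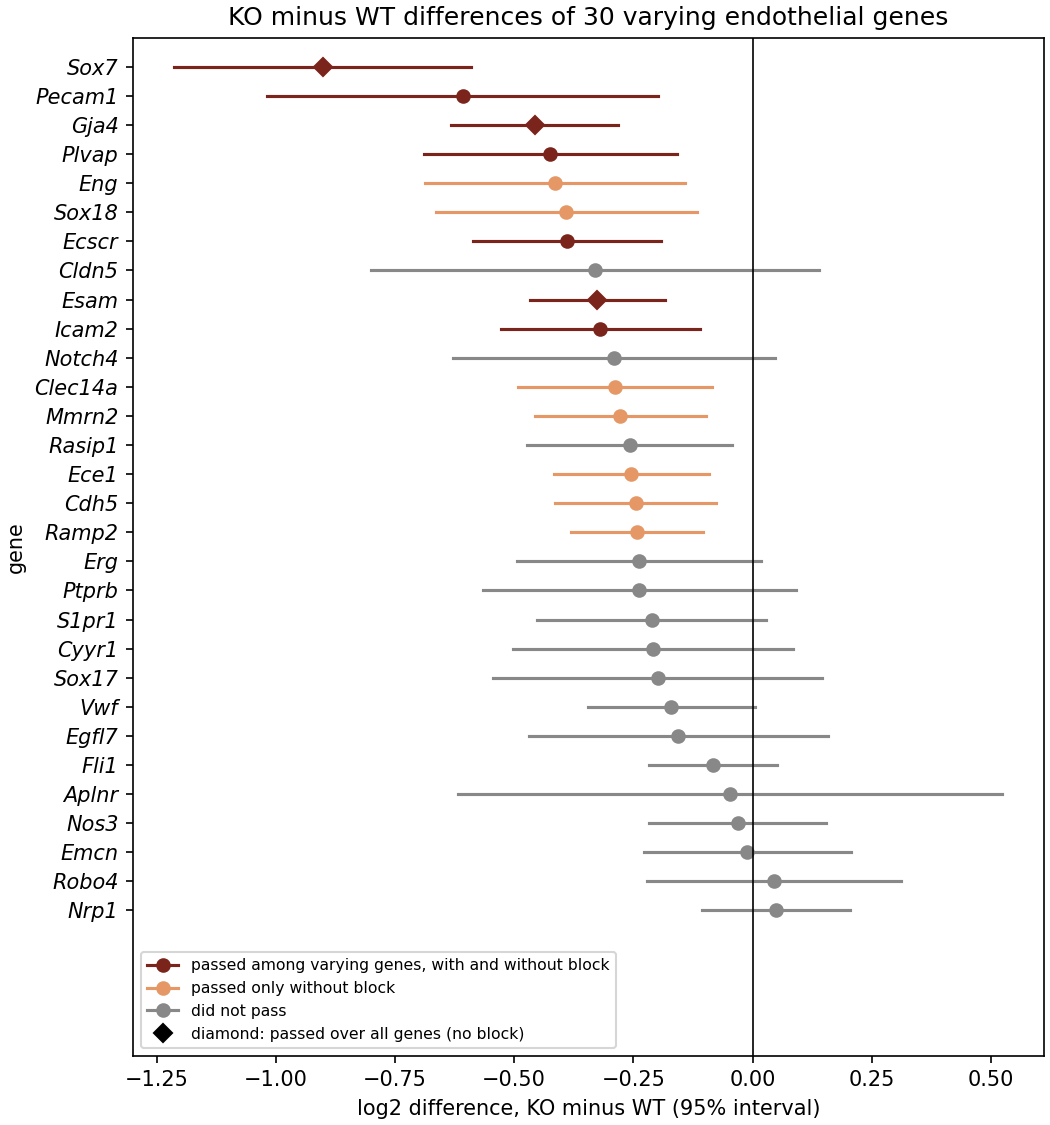
KO minus WT difference on the log2 scale (points) with its 95% interval from limma among varying genes (lines) for the 30 varying endothelial genes, ordered by size. The 14 coloured genes passed among varying genes, the 7 dark ones also with the replicate number as a block, and diamonds mark the 3 that passed over all genes.

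Among genes of cell contact and junctions 7 of 7 varied, and all 7 means were lower in KO. Esam, an adhesion molecule of endothelial tight junctions and platelets, read 9.74, 9.82, 9.65 and 9.73 in KO 1 to 4 and 9.94, 10.09, 10.16 and 10.06 in WT 1 to 4. Every KO array lay below every WT array, and the difference was -0.33 ± 0.06 (SE, n = 4 against 4). Its limma adjusted p was 0.0381 with all genes tested, 0.0124 in varying genes and 0.0371 there with the block. Gja4 encodes a connexin, a gap junction channel of arterial endothelium. It read 7.63, 7.76, 7.51 and 7.54 in KO against 8.03, 8.22, 8.03 and 7.98 in WT. The genotypes were well apart and the fall was alike in the 4 number pairs (-0.40, -0.46, -0.52 and -0.44), and it passed with all genes tested (limma adjusted p = 0.0350), in varying genes (0.0092) and there with the block (0.0201).

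Pecam1, the homophilic adhesion molecule CD31 of endothelial cells, platelets and leukocytes, read 7.77, 8.49, 7.93 and 8.26 in KO and 8.39, 8.70, 8.89 and 8.90 in WT. The genotypes overlapped, as KO 2 lay above WT 1, and Pecam1 passed among varying genes (-0.61 ± 0.20, SE; limma adjusted p = 0.0396, or 0.0377 with the block) but not over all genes (0.136). Icam2, a ligand of leukocyte integrins, read 8.37, 8.54, 8.39 and 8.36 in KO and 8.55, 8.81, 8.94 and 8.64 in WT. The genotypes did not overlap, although KO 2 and WT 1 nearly met, and Icam2 passed among varying genes (-0.32, limma adjusted p = 0.0362, or 0.0439 with the block).

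Cdh5, or VE-cadherin, the defining adherens junction protein of endothelium, read 9.81, 9.97, 9.69 and 9.81 in KO and 9.93, 10.08, 10.16 and 10.09 in WT. KO 2 lay above WT 1, and the difference of -0.24 ± 0.07 (SE) passed among varying genes (limma adjusted p = 0.0424) but not with the block (0.0761). The tight junction protein Cldn5 (-0.33) and the VE-cadherin-bound phosphatase Ptprb (-0.24) did not pass in any of the 4 fits. Cldn5 went both ways between number pairs, from -0.67 to 0.33, and the differences of Ptprb ran from -0.82 to 0.02.

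**Figure D3:**
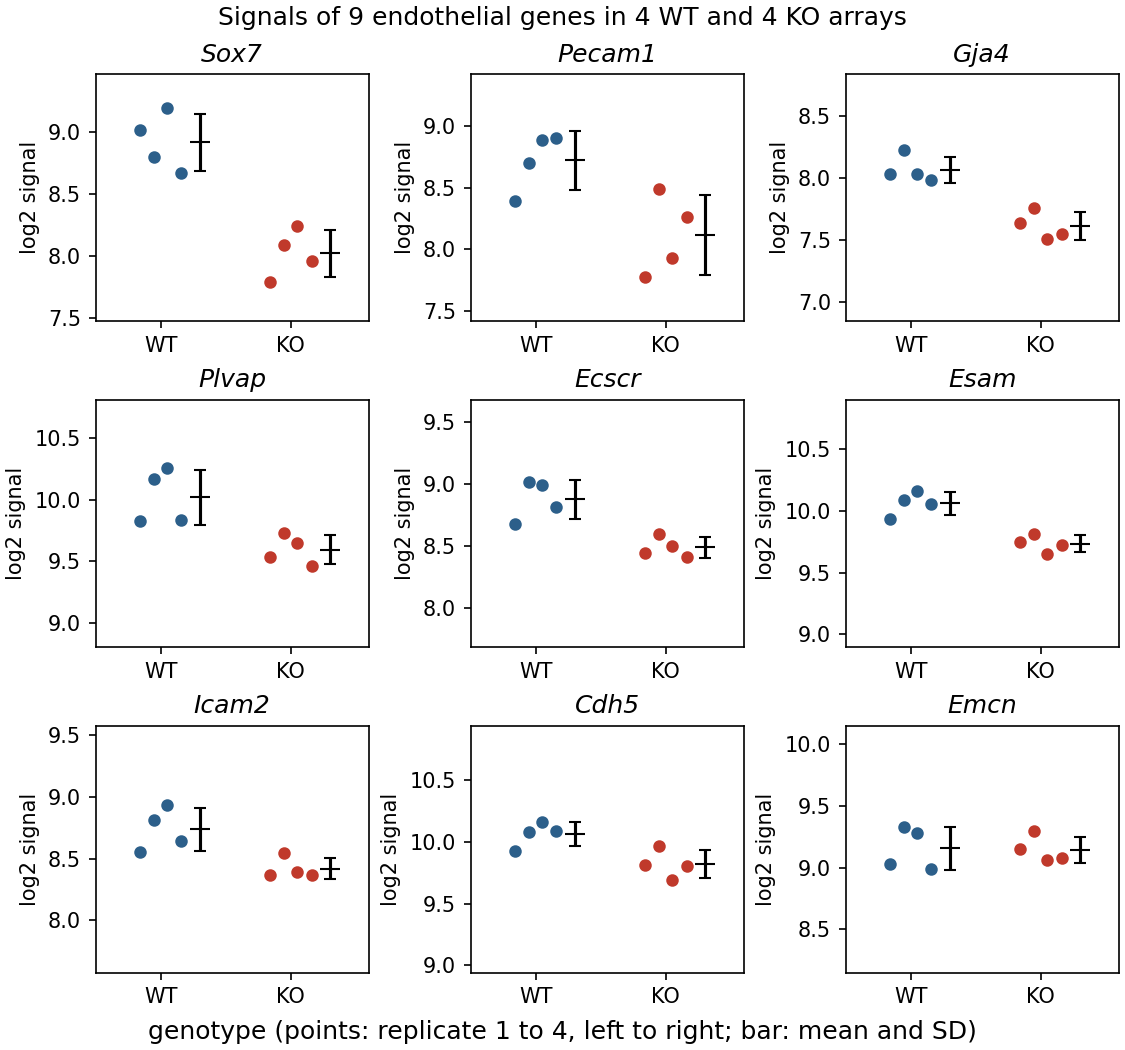
Log2 signals of 9 endothelial genes in 4 WT (blue) and 4 KO (red) arrays, replicates 1 to 4 from left to right, with mean and SD beside them; each panel spans the same number of log2 units. Sox7, Gja4, Esam, Plvap, Ecscr and Icam2 separate without overlap, Pecam1 and Cdh5 overlap by 1 KO array, and the genotypes of Emcn overlap throughout.

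Of the 6 transcription factors 5 varied and all 5 had a lower KO mean. Sox7, a SOXF factor of developing and adult endothelium, read 7.79, 8.09, 8.24 and 7.96 in KO and 9.02, 8.80, 9.19 and 8.67 in WT. The genotypes were well apart, and the difference of -0.90 ± 0.15 (SE) passed over all genes (limma adjusted p = 0.0346) and among varying genes without (0.0070) and with the block (0.0218). Its other probe set, 1432495_at, gave 6.18, 6.32, 6.27 and 6.09 in KO and 6.92, 6.68, 7.30 and 6.91 in WT, again without overlap (-0.74). The other varying endothelial genes averaged a difference of -0.24. The Sox7 difference lay further down than theirs in each number pair, by -1.12, -0.57, -0.47 and -0.47 in pairs 1 to 4.

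The related factor Sox18, which acts with Sox7 and Sox17 in vessel formation, read 8.79, 9.17, 8.91 and 8.95 in KO and 9.19, 9.33, 9.64 and 9.22 in WT. KO 2 nearly met WT 1, and Sox18 passed among varying genes (-0.39, limma adjusted p = 0.0439) but not with the block (0.0588). Sox17, the arterial member of the group, had a mean difference of -0.20, seen in numbers 2 (-0.57) and 3 (-0.42) and opposite in 4 (0.25), and did not pass in any of the 4 fits. By the suffix of its name, its brightest probe set may match other transcripts, as may that of Egfl7.

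The ETS factors had smaller differences. Erg, which activates junction genes of resting endothelium, read 8.22, 8.31, 8.07 and 7.98 in KO and 8.30, 8.49, 8.59 and 8.16 in WT. The genotypes overlapped, and the difference of -0.24 did not pass (limma adjusted p = 0.137 among varying genes, 95% interval -0.49 to 0.02). Fli1, which blood cells express too, differed by -0.08 (interval -0.22 to 0.05). Tal1, a factor of blood and endothelial progenitors, was near constant at 7.11.

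Receptors and their partners gave 8 varying genes of 10. Eng (endoglin), the endothelial co-receptor for BMP9 and TGF-beta, read 8.66, 8.90, 8.40 and 8.62 in KO and 8.92, 9.01, 9.30 and 9.00 in WT. The genotypes did not overlap but lay close between KO 2 and WT 1. Eng passed among varying genes (-0.41 ± 0.13, SE; limma adjusted p = 0.0372) but not with the block (0.0851), and its other probe set gave -0.42. Ramp2, the accessory protein that turns the calcitonin receptor-like receptor into an adrenomedullin receptor, read 9.81, 9.82, 9.64 and 9.78 in KO and 9.95, 10.07, 10.07 and 9.93 in WT. Its genotypes were apart, and it passed among varying genes (-0.24, limma adjusted p = 0.0245) but not with the block (0.0600). Clec14a, a C-type lectin family receptor that binds Mmrn2, read 7.39, 7.55, 7.32 and 7.28 in KO and 7.49, 7.68, 7.85 and 7.68 in WT. KO 2 lay above WT 1, and it passed among varying genes (-0.29, limma adjusted p = 0.0448) but not with the block (0.0756).

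Promoters were read for the genes that the RefSeq table (GRCm38.p6) holds, as 250 bases before to 50 after a transcript start. It gave 25 promoters for 17 of the 34 genes. An ETS-type motif, CNGGAAG on either strand, was present in 13 of the 25 (52.0%), against 31.9% of all 32817 promoters. A SOX-type motif, ACAANG, was present in 7 (28.0% against 41.3%), and the GATA motif AGATAA in 2 (8.0% against 11.2%). Ece1, Egfl7, Erg and Tal1 have several of the 25 each, and a pair of those of Ece1 overlap. A match is a stretch of letters, not a site. The promoters of 3 genes that fell among varying genes are shown because they differ in these motifs, 5′ to 3′ with the matches in capitals. Clec14a (chr12:58269209-58269508, minus strand) holds 1 ETS-type match that begins 84 bases before the start, Eng (chr2:32646345-32646644, plus strand) holds 2 SOX-type matches, which begin 210 and 67 bases before it, and Gja4 (chr4:127313990-127314289, minus strand) holds none of the 3 motifs.
Clec14a: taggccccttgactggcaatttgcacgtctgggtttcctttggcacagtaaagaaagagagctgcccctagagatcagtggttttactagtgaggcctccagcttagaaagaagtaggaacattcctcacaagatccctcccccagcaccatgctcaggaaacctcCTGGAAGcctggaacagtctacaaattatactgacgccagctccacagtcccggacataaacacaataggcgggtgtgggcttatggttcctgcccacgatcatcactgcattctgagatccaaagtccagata
Eng: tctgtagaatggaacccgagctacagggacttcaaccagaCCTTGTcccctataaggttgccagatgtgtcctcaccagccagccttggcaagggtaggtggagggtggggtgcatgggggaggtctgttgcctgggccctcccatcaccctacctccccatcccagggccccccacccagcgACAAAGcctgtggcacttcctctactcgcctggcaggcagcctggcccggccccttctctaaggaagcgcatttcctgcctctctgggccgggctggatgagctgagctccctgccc
Gja4: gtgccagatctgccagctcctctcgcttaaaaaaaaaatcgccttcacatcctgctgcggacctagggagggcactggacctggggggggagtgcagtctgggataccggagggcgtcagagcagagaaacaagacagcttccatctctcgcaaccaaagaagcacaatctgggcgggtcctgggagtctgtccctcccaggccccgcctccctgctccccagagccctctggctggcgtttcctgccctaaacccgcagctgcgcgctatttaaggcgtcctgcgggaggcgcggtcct

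The other receptors did not pass in any of the 4 fits. Notch4, an endothelial Notch receptor, differed by -0.29, mostly in number 3 (-0.91), while its ligand Dll4 was near constant at 6.67. The sphingosine-1-phosphate receptor S1pr1 differed by -0.21 (95% interval -0.45 to 0.03). Robo4, a guidance receptor that steadies vessels (0.044, interval -0.22 to 0.31), and Nrp1, a co-receptor of VEGF and semaphorins (0.049, interval -0.11 to 0.20), had the higher KO means. The 4 varying probe sets of Nrp1 ran from -0.10 to 0.05, so its sign was not settled. The apelin receptor Aplnr (-0.047) rested on single arrays, with 8.18 in KO 4 and 9.40 in WT 4 against 8.70 to 9.16 in the other 6. Tie1, an orphan receptor of the angiopoietin system and a defining endothelial gene, was listed at 6.78 in each of the 8 arrays by its single probe set, so its comparison was not informative.

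Among matrix, mucin-like and secreted products 4 of 5 genes varied. Mmrn2, an endothelial matrix protein that binds Clec14a, read 9.49, 9.52, 9.28 and 9.40 in KO and 9.58, 9.73, 9.85 and 9.65 in WT. The genotypes did not overlap, and it passed among varying genes (-0.28, limma adjusted p = 0.0347) but not with the block (0.0819). Its 4 probe sets were alike, with differences from -0.18 to -0.28. Von Willebrand factor Vwf, stored in endothelial granules and released to bind platelets (-0.17), and the secreted vessel factor Egfl7 (-0.16) did not pass. Endomucin Emcn, a sialomucin of capillaries and veins, read 9.06 to 9.29 in KO and 8.99 to 9.33 in WT, a difference of -0.011 with a 95% interval of -0.23 to 0.21. Esm1, a proteoglycan of endothelial tip cells, was near constant at 6.09.

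**Figure D4:**
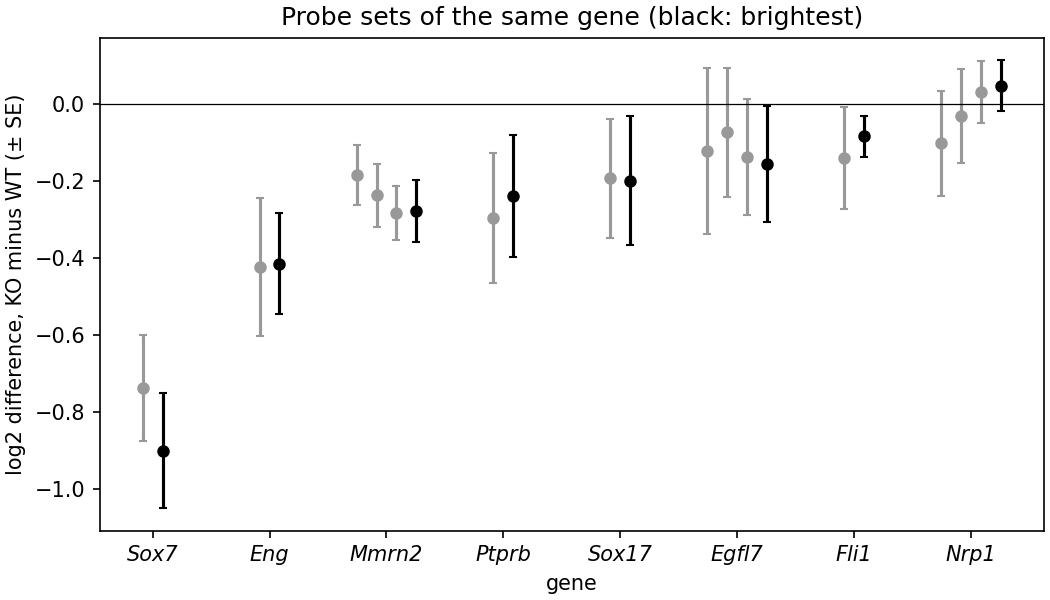
KO minus WT difference on the log2 scale (± SE, n = 4 against 4) of every varying probe set for the 8 endothelial genes that had several; black marks the brightest, which stands for the gene. Both Sox7 probe sets lie lowest, at -0.90 and -0.74, and the probe sets of Nrp1 fall on both sides of 0.

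All 6 measured genes of the last group, enzymes, diaphragm, signalling and other proteins, varied and had a lower KO mean. Plvap, which forms the diaphragms of fenestrae and caveolae, read 9.53, 9.73, 9.65 and 9.46 in KO and 9.82, 10.16, 10.25 and 9.83 in WT. The genotypes did not overlap, and it passed among varying genes (-0.42 ± 0.12, SE; limma adjusted p = 0.0317, or 0.0281 with the block). Ecscr, a sialomucin-like surface protein that regulates endothelial migration, read 8.44, 8.60, 8.50 and 8.41 in KO and 8.68, 9.02, 9.00 and 8.81 in WT. It passed among varying genes (-0.39 ± 0.09, SE; limma adjusted p = 0.0179, or 0.0270 with the block) and missed the threshold over all genes (0.0647). Ece1, the enzyme that activates endothelin, read 9.27, 9.29, 9.21 and 9.18 in KO and 9.31, 9.51, 9.63 and 9.51 in WT. Without overlap between genotypes, it passed among varying genes (-0.25, limma adjusted p = 0.0334) but not with the block (0.0692).

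The vascular tube factor Rasip1 (-0.26) and Cyyr1 (-0.21), a membrane protein, passed in 0 of the 4 fits. Endothelial nitric oxide synthase Nos3, which makes the vessel-relaxing gas of endothelium, differed by -0.031, with a 95% interval of -0.22 to 0.15. Each of the 11 genes whose genotypes did not overlap had an exact two-sided permutation p of 0.0286, the smallest that 4 against 4 arrays can give.

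The endothelial mean followed the same course as the single genes. Averaged over the 34 measured genes, it was 8.65, 8.78, 8.58 and 8.60 in KO 1 to 4 and 8.78, 8.92, 9.01 and 8.83 in WT 1 to 4. KO 2 and WT 1 coincided, and the other KO arrays lay below all WT arrays. The KO arrays averaged 8.65 ± 0.09 (SD, n = 4) and the WT arrays 8.88 ± 0.10 (SD, n = 4), which differ by -0.23. No test is given for this mean, as its genes were chosen with results known. Without Sox7 the difference was -0.21.

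The difference was larger in numbers 3 and 4 (-0.33) than in numbers 1 and 2 (-0.13), and 26 of the 30 varying genes showed this order. Whether the pairs differ was not tested. WT 3 held the highest value in 17 of the 30 genes and KO 3 the lowest in 13. Without WT 3 the mean difference was -0.19 and without KO 3 it was -0.21. Arrays 3 and 4 also differed from 1 and 2 in skeletal muscle markers, whose mean over 13 genes was 8.87 to 9.55 in numbers 1 and 2 and 6.49 to 7.24 in numbers 3 and 4, in both genotypes. WT 3 in addition had the lowest mean of 12 macrophage markers (8.72, against 9.18 to 10.02 in the other 7 arrays) and of 9 fibroblast markers (9.53, against 10.06 to 10.30). The part of these cells in the endothelial difference was not tested.

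Other genes of blood endothelium, 35 genes that are not among those above, gave a more mixed picture. Of these 27 varied, 17 with a lower and 10 with a higher KO mean, and the median difference of the varying genes was -0.08, beside -0.25 for the 30 and 0.01 for all varying genes. Over all genes 0 of 35 passed. An unadjusted p under 0.05 (limma) was found for 11 of the 35, against 4172 of all 18193 genes. Among varying genes 4 of 27 fell and 2 rose, where 12.2% and 14.9% of all varying genes did. With the block 2 fell and 1 rose, where 9.24% and 10.3% of all did. These counts among varying genes are near or below those shares. By size, Palmd fell (-0.33; limma adjusted p = 0.0329 among varying genes, or 0.0485 with the block), and the leukocyte adhesion molecule Vcam1 was higher without passing (0.42; adjusted p = 0.160). The others that passed among varying genes, picked here after their values were seen, were the lectin-like receptor Cd93 (-0.25), endothelin-1 Edn1 (-0.32) and the Notch target Hey1 (-0.19), which fell, and the caveolins Cav1 (0.19) and Cav2 (0.30), which rose and are also abundant in adipocytes. The difference between the lists was not tested.

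Of 13 pericyte and smooth muscle genes 11 varied, 7 with a lower and 4 with a higher KO mean. Among varying genes 2 fell, or 3 with the block, where 12.2% and 9.24% of all varying genes fell. The mean of these 11 was 9.04 to 9.37 in KO and 9.40 to 9.54 in WT. Smooth muscle actin Acta2 was the 1 gene to fall over all genes (-1.26, limma adjusted p = 0.0134). Tagln, a smooth muscle actin-binding protein, was the other that fell among varying genes (-0.48, limma adjusted p = 0.0349). Myh11 fell there only with the block (-0.36, limma adjusted p = 0.0377). The other varying genes of this list did not pass in any of the 4 fits. KO means were lower for Pdgfrb (-0.20), Mcam (-0.26), Des (-0.33) and the pericyte channel gene Kcnj8 (-0.11). They were higher for the pericyte channel gene Abcc9 (0.036), the pericyte marker Rgs5 (0.12), Notch3 (0.044) and Cspg4 (0.011). Cnn1 and Higd1b were near constant. Of 6 Schwann cell genes 5 varied and all 5 fell among varying genes with and without the block, led by Mbp (-1.56) and Mal (-0.99); the mean over the 5 was 8.10 to 8.73 in KO and 8.92 to 9.61 in WT, while Sox10 was near constant. Their part in the endothelial values was not tested.

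Of 6 platelet genes, relevant to Pecam1, Esam and Vwf, 2 varied: Ppbp fell among varying genes (-0.52, limma adjusted p = 0.0185) and Pf4 differed by 0.25, while the platelet receptor subunits Itga2b, Gp1bb and Gp9 were near constant. Of 6 measured lymphatic genes 3 varied, with Reln lower (-0.78, 0.0226 among varying genes) and Lyve1 at 0.43, and Prox1 and Flt4 near constant. Of the 12 macrophage genes 11 had a higher KO mean. They averaged 9.60 to 9.78 in KO and 8.72 to 10.02 in WT, and 0 of them passed in limma. An unadjusted p under 0.05 was found for 0 of them over all genes and 1 among varying genes. The same held for 4172 of all 18193 genes and 2254 of the 5173 varying genes. The adipocyte mean over 8 varying genes was 12.02 to 12.20 in KO and 12.00 to 12.12 in WT. Of these 8 genes 3 had a lower and 5 a higher KO mean. The largest difference was that of Lep (-0.38), which passed only among varying genes with the block (limma adjusted p = 0.0331). Of 10 measured adipocyte genes 2 rose over all genes, both without overlap and both named after their values were seen. They were the adipokines Adipoq (0.25; limma adjusted p = 0.0486, or 0.175 with the block) and Retn (0.26; limma adjusted p = 0.0465, or 0.107 with the block). Their part in the endothelial values was not tested. Of blood cell markers 1 of 3 erythrocyte and 2 of 6 lymphocyte genes varied, with KO means higher by 0.25 and 0.58.

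**Figure D5:**
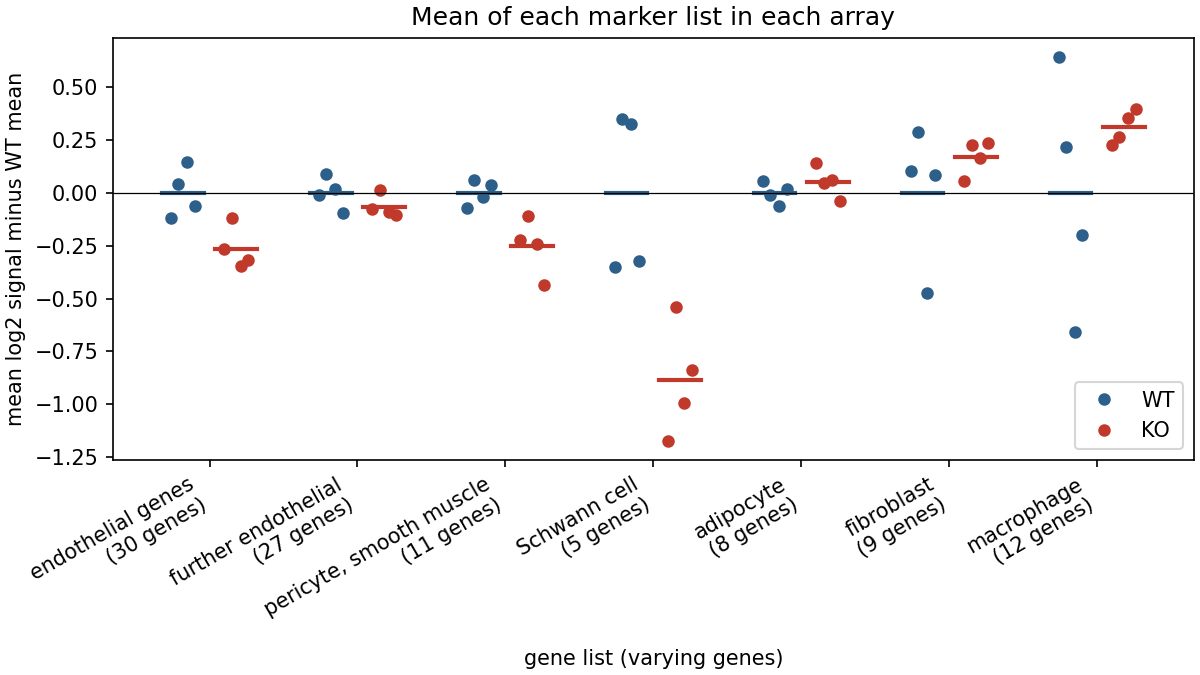
Mean log2 signal of the varying genes of 7 marker lists in each array, minus the list's WT mean; points are arrays (blue WT, red KO) and bars are genotype means. The endothelial list, the joint pericyte and smooth muscle list and the Schwann cell list lie lower in KO. The further endothelial genes overlap, and the macrophage and fibroblast values of WT arrays spread widely.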

How the data were processed

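Inguinal fat of 4 KO and 4 WT mice was measured on 8 arrays; per the labels' protocols, 100 ng of total RNA was amplified and labelled with biotin. The authors deposited log2 values for 45101 probe sets. The submitters' processing notes name R 2.14.0, and no label or header used here states background correction, normalization or summarization. The log2 scale was read from the range, 4.93 to 14.3. Platform annotation paired 34945 probe sets with 1 gene, and 932 with several, which were left out, as were 64 controls. The brightest probe set gave each of 18193 genes. Tests were fitted with limma 3.58.1 in R 4.3.3 (lmFit, eBayes, two-sided) on all genes, and on 5173 genes with an SD of 0.01 or more. Every varying endothelial gene had an SD of at least 0.03 within each genotype.

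The genes, lists and alternatives were chosen with earlier results of these data known. Values per array are given for genes that passed in any of 4 fits, for the 5 with the largest difference and for Pecam1, Cdh5, Tie1 and Erg; of other lists the 2 largest differences may be named, and further names there were picked after their values were seen. Same-numbered KO and WT arrays deviated together over all genes (correlations 0.315, 0.486, 0.189 and 0.244), so the numbers were treated as pairs on the data alone, although the correlation of KO 3 was higher with WT 4 (0.364), and that of KO 4 with WT 3 (0.266). The mice are labelled biological replicates. The number of arrays limits the precision.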

Additional observations from a re-analysis of the deposited data

Results flagged for a closer look

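Of 62 sets of 4 arrays checked (30 varying endothelial genes and their overall mean, in each genotype), 4 held an array far from the other 3, meaning that its gap to the nearest, divided by the range of the 4, passed Dixon's 95% critical value. By that choice of critical value chance gives about 1 in 20. Icam2 was high in KO 2 (8.54), and Aplnr was high in WT 4 (9.40). Rasip1 was high in KO 2 (7.15) and in WT 3 (7.43).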

How the results depend on the processing

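The lower endothelial mean kept its sign under every alternative run, from -0.19 to -0.27, and 28 of the 30 varying genes had a lower KO mean under both rescalings. Of all genes 733 passed, but 0 with the replicate block, 1402 among varying genes, and 10 to 253 with an array left out. Among varying genes 1402 became 636 to 1149 with an array left out. The 3 endothelial genes that passed over all genes became 0 with the replicate block, 1 with a block for the number pairs 1 and 2 versus 3 and 4, and 5 with arrays centred on the median of varying genes or with brighter genes only. They became 14 among varying genes, 7 there with the replicate block, and 0 to 2 with an array left out. The 733 of all genes became 493 with numbers 1 and 2 versus 3 and 4 as a block. They became 841 with arrays centred, and 868 of 9096 with brighter genes only. The 14 became 7 with the replicate block, 11 with a block for numbers 1 and 2 versus 3 and 4, and 4 to 14 with an array left out. They became 11 with arrays centred on the median of varying genes, 13 with quantile normalization and 10 with probe sets averaged. Of all 5173 varying genes the 1402 became 1011 with the replicate block, and 1417 with numbers 1 and 2 versus 3 and 4 as a block. They became 1228 with arrays centred, 1379 with quantile normalization and 1325 with probe sets averaged. The cause was not tested, beyond fewer arrays. Reversed signs were seen only in genes that did not pass: Nrp1 with probe sets averaged (-0.0126) or without WT 3, Robo4 without KO 1 or WT 4, Aplnr without KO 4 or WT 4, Nos3 without KO 3 or KO 4, and Emcn without KO 3, KO 4, WT 2 or WT 3. With an array left out they ran from -0.0065 to 0.0860 (Nrp1), -0.0148 to 0.146 (Robo4), -0.155 to 0.172 (Aplnr), -0.0902 to 0.0240 (Nos3) and -0.0654 to 0.0456 (Emcn). The block changed no other call among endothelial genes than those given beside them. Signal over background was not analysed here.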
